A study of Macaca mulatta with 20 samples.

Results

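The change in liver gene expression over 2 years was measured in rhesus monkeys (Macaca mulatta) that stayed on a control diet. The comparison uses every library whose diet label is Control, which is 10 of the 20 libraries of a study of caloric restriction (CR). They are 5 biopsies taken at year 2 and 5 taken at year 0, with both biopsies coming from the same animals, numbered 001, 005, 006, 009 and 010, and the year 2 biopsy of an animal was compared with its own year 0 biopsy. The remaining 10 libraries are the year 2 and year 0 biopsies of 5 animals labelled CR (004, 007, 008, 011 and 012), which were used to share the estimate of spread and to test whether the Control change differed from the CR change. The labels used here state neither what the diets contained nor how old the animals were. Each library is RNA of a liver biopsy read by paired-end RNA-seq, 1 library per animal and time, so that the animal is the replicate.

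The liver makes most plasma proteins, builds and exports lipids, breaks down amino acids and detoxifies drugs, and most of its RNA comes from hepatocytes. The rest comes from bile duct cells (cholangiocytes), sinusoidal endothelium, stellate cells that deposit matrix, and resident macrophages (Kupffer cells) with other immune cells. In bulk RNA of a biopsy, fewer cells of a type and less RNA per cell cannot be told apart. Cholesterol and fatty acid synthesis are controlled together by the sterol-regulated SREBP transcription factors and move with feeding, and many metabolic genes of the liver follow the circadian clock.

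The libraries were liver by their markers: the 27 measured genes of a list of 28 hepatocyte secretory proteins (albumin, apolipoproteins, transferrin and the like) were all detected. They summed to 77581 to 384625 CPM at year 2 and 267931 to 316930.0 CPM at year 0, where CPM is the library-scaled count after TMM normalization, the level used throughout. Among the markers of neighbouring organs, PRSS1, PRSS2, CELA3B and GCG of the pancreas and UMOD, AQP2, NPHS1 and SLC22A6 of the kidney were at 0 in every Control library. The 16 pancreas markers in the table summed to 249, 42.5, 41.7, 379 and 118 CPM at year 2 in animals 001, 005, 006, 009 and 010, against 93.2, 137, 125, 67.6 and 71.7 CPM at year 0, most of it from the amylase gene AMY2B (242, 37.6, 37.3, 366 and 113 CPM at year 2 against 86.1, 129, 117, 65.2 and 69.3 CPM at year 0). The highest sums were in 009 and 001 at year 2, and their part in the results was not tested. The 14 kidney markers summed to 3.93 to 4.44 CPM at year 2 and 3.63 to 4.95 CPM at year 0. Library totals were 15421789 to 28850569 counts at year 2 and 24712214 to 28310124 at year 0. A pair of year 2 libraries stood apart. Animal 009 had the shallowest library, the lowest albumin share (5.42% of counts) and a hepatocyte sum of 77581 CPM. Animal 001 had an albumin share of 8.57% but the highest hepatocyte sum, 384625 CPM, with haptoglobin (HP), an acute phase protein that binds free haemoglobin, at 7.53% of its counts, against 1.98% to 2.46% in the other year 2 libraries and 1.77% to 3.26% at year 0. Shares of counts are not TMM-scaled, whereas CPM is, and a TMM factor below 1 raises the CPM of a library relative to its shares. The factor was 0.763 in 001 and 1.66 in 009 at year 2, against 0.900 to 1.11 in the other 18 libraries. The high hepatocyte sum of 001 and the low one of 009 thus include this scaling. The albumin share of the other 18 libraries was 10.6% to 15.8%. Counts and medians are therefore given for 5 animals and, where stated, also for the 3 animals (005, 006 and 010) that remain without the year 2 libraries of 001 and 009.

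The amount of change differed between animals. Of the 13730 genes tested, 46.1% differed by more than 2-fold between year 2 and year 0 in animal 009 and 34.7% in animal 001. The share was 14.0% in animal 005, 12.8% in 006 and 11.5% in 010, against 7.02% to 13.2% in the 5 CR animals. The changes did not run in parallel. Across genes, which are not independent replicates, the correlation of the log2 changes was 0.48 between animals 009 and 010, 0.45 between 005 and 006 and 0.35 between 001 and 009. It was -0.24 between 005 and 009 and -0.17 between 001 and 005. The change in animal 001 also went with the length of the transcript (Spearman rho of -0.36 with effective length across genes), and in the other Control animals rho was between -0.14 and 0.19. In CR animals 004, 007, 008, 011 and 012 rho was -0.19, -0.17, -0.19, 0.02 and -0.30, so that a negative rho was not particular to 001. The part of length in the results was not tested.

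No gene passed the test in 5 animals. EdgeR's quasi-likelihood test with the animal as a block called 0 of 13730 genes (0%) at a Benjamini-Hochberg adjusted p under 0.05. At an unadjusted p under 0.05 there were 2005 genes (14.6%), of which 976 were higher (7.11%) and 1029 lower at year 2 (7.49%). DESeq2 with the same design called 210 genes (1.53%), 114 higher (0.83%) and 96 lower (0.699%). Limma on log2(TPM + 1) called 0, with 1805 (13.1%) at an unadjusted p under 0.05. In 3 animals edgeR called 1 of 13881 genes (0.0072%), which was higher, with 1091 genes at an unadjusted p under 0.05 (7.86%; 3.67% higher and 4.19% lower), and DESeq2 called 75 (0.54%; 0.195% higher and 0.346% lower). Of the genes at an unadjusted p under 0.05, 474 were shared with the same direction, which is 23.6% of those from 5 animals and 43.4% of those from 3. The change had the same sign in 5 of 5 animals in 1293 genes (9.42%). The 5 year 2 values did not overlap with the 5 year 0 values in 342 genes (2.49%), 159 of them higher (1.16%) and 183 lower (1.33%). The genes described next are those of smallest p with the same direction in every animal of the fit, and their differences are values, not calls, unless stated.

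EPHB1, a receptor tyrosine kinase for ephrins, was the gene called in 3 animals. Its level was 14.0, 14.7, 7.85, 1.60 and 1.92 CPM at year 2 in animals 001, 005, 006, 009 and 010, against 10.7, 0.564, 0.398, 0.196 and 0.0745 CPM at year 0 in the same order of animals, which is also the order in all lists of 5 values that follow. Animal 001 was high at both times, and the other 4 animals were higher at year 2 than any of their own year 0 values. All differences below are fitted log2 changes, year 2 minus year 0, with their SE. In 3 animals EPHB1 rose by 4.54 ± 0.47 (edgeR adjusted p = 0.0382), and in 5 animals the difference was 3.26 ± 0.63 (adjusted p = 0.289). The year 0 values of animals 005, 006, 009 and 010 rested on 13, 10, 5 and 2 counts. In the CR animals EPHB1 was at 2.08 to 14.2 CPM at year 2 and 5.40 to 20.1 CPM at year 0, so that these 4 Control livers at year 0 were below every other library of the study. The call of EPHB1 depended on the animals in the fit. Leaving out 1 more animal ended it in 7 of 8 cases, with an edgeR adjusted p of 0.0524 to 0.411 (the highest without 005), and without CR animal 007 it was 0.00176. In the Control libraries alone it was 0.156.

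AKR1B10, an aldo-keto reductase that reduces retinal and lipid aldehydes, was higher in all 5 animals, with 26.8, 1.61, 3.93, 8.05 and 11.4 CPM at year 2 against 10.7, 0.304, 0.199, 0.0393 and 0.335 CPM at year 0. As with EPHB1, animal 001 was already high at year 0, and that value overlapped with the year 2 values of the other animals. The difference was 3.73 ± 0.64 in 5 animals (edgeR adjusted p = 0.231) and 4.04 ± 0.46 in 3 animals (adjusted p = 0.0516). Without animal 001 the fit of the other 4 called AKR1B10 (4.61, adjusted p = 0.0375) together with EPHB1 (4.22, adjusted p = 0.0203) as higher and FAM19A5 (-4.40, adjusted p = 0.0375) as lower. Leaving out any other single animal gave no call in the 5-animal fit.

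**Figure D1:**
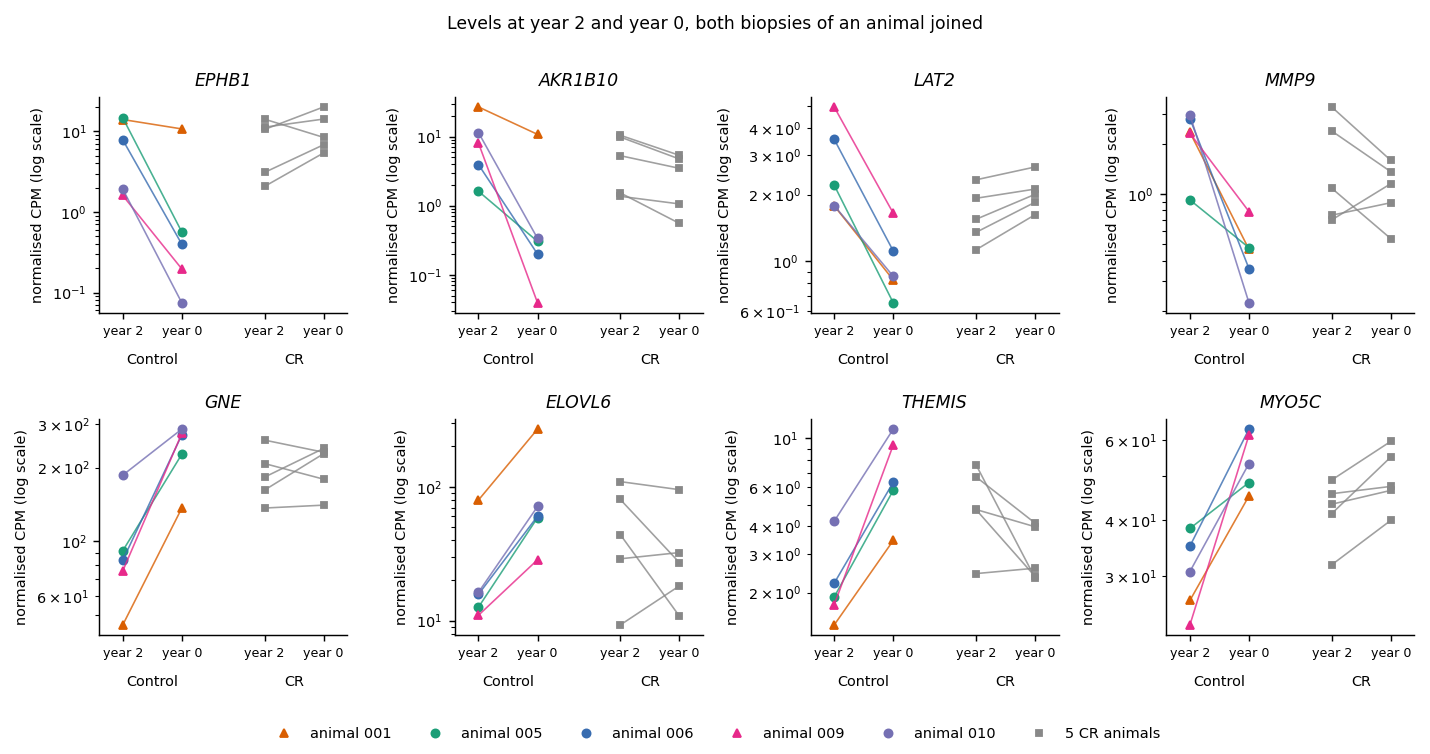
Normalised CPM on a log axis for 8 genes in the year 2 and year 0 biopsies of each Control animal (colours; triangles for 001 and 009) and each CR animal (grey squares), with lines joining both biopsies of an animal. EPHB1 and AKR1B10 are lowest at year 0 in Control animals 005, 006, 009 and 010, while animal 001 is high at both times; the lower 4 panels show genes that were lower at year 2 in 5 of 5 Control animals.

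The 10 genes of smallest p that were higher in 5 of 5 animals were EPHB1, AKR1B10 and 8 others. LAT2, an adaptor of signalling in B cells, mast cells and myeloid cells, had 1.78, 2.21, 3.55, 4.96 and 1.78 CPM at year 2 against 0.825, 0.651, 1.11, 1.65 and 0.857 CPM at year 0. Every year 2 value was above every year 0 value, and the difference was 1.44 ± 0.24 in 5 animals and 1.51 ± 0.27 in 3. MMP9, the gelatinase of neutrophils and macrophages, had 2.34, 0.922, 2.82, 2.30 and 2.97 CPM at year 2 against 0.467, 0.477, 0.358, 0.785 and 0.224 CPM at year 0, again without overlap. For MMP9 the difference was 2.27 ± 0.44 in 5 animals and 2.55 ± 0.58 in 3. PILRA, an inhibitory receptor of myeloid cells, had 0.712, 2.37, 3.13, 1.68 and 1.46 CPM at year 2 against 0.359, 0.781, 0.557, 0.628 and 0.671 CPM at year 0; its groups overlapped through the year 2 value of animal 001. These 3 genes were at low levels, so that few reads stand behind each value.

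ST14, the membrane serine protease matriptase of epithelia, had 4.99, 3.65, 4.41, 8.01 and 5.13 CPM at year 2 against 1.15, 0.738, 1.11, 1.73 and 2.20 CPM at year 0, without overlap. For ST14 the difference was 1.96 ± 0.39 in 5 animals and 1.82 ± 0.54 in 3. BTNL9, a butyrophilin-like surface protein, had 51.7, 53.6, 55.2, 183 and 63.6 CPM at year 2 against 15.1, 27.3, 21.4, 19.2 and 16.3 CPM at year 0, also without overlap, with animal 009 far above the rest. MRC2, a collagen uptake receptor of mesenchymal cells, averaged 8.78 ± 3.44 CPM at year 2 against 4.17 ± 0.975 CPM at year 0 (SD, n = 5 each), without overlap. COTL1, an actin-binding protein abundant in blood cells, averaged 59.0 ± 16.2 CPM at year 2 against 30.2 ± 2.93 CPM at year 0, and OPTN, an autophagy receptor, 47.9 ± 3.76 CPM at year 2 against 28.9 ± 3.23 CPM at year 0, both without overlap. The difference was 1.85 ± 0.34 for BTNL9, 1.04 ± 0.21 for MRC2, 0.93 ± 0.18 for COTL1 and 0.73 ± 0.15 for OPTN. The edgeR adjusted p of the 10 genes was 0.231 to 0.289, and DESeq2 called all 10. Since the 10 were chosen by their p from the same counts and design, the DESeq2 calls are not separate evidence.

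Among the 10 genes of smallest p that were lower in 5 of 5 animals, GNE and ELOVL6 are enzymes of metabolism. GNE, the enzyme that starts sialic acid synthesis, had the smallest p of all genes, with 45.6, 91.5, 83.7, 75.7 and 186 CPM at year 2 against 137, 227, 272, 276 and 287 CPM at year 0 (-1.42 ± 0.21 in 5 animals, -1.20 ± 0.22 in 3; edgeR adjusted p = 0.231 and 0.343). Each animal was lower at year 2, and the groups overlapped only because animal 010 at year 2 was above animal 001 at year 0. ELOVL6, which elongates saturated fatty acids and is a target of SREBP-1, had 79.6, 12.6, 15.7, 11.0 and 16.3 CPM at year 2 against 269.6, 58.8, 60.3, 28.5 and 71.2 CPM at year 0. Animal 001 was several times above the others at both times, yet its change (-1.76) lay within the range of the other animals (-2.22 to -1.37). The fitted difference was -1.89 ± 0.35 in 5 animals and -2.08 ± 0.48 in 3.

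THEMIS, known for its part in thymocyte selection, had 1.42, 1.91, 2.20, 1.76 and 4.21 CPM at year 2 against 3.45, 5.82, 6.33, 9.34 and 11.0 CPM at year 0 (-1.64 ± 0.28), so that it was lower in every animal. The list of T and NK cell markers it belongs to had medians by animal of -0.64, -0.38, 1.10, 1.22 and 0.39, below 0 in 001 and 005 and above 0 in the other 3.

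MYO5C, an unconventional myosin of secretory epithelia, averaged 30.8 ± 6.04 CPM at year 2 against 54.4 ± 8.02 CPM at year 0 (SD, n = 5 each), without overlap. For MYO5C the difference was -0.83 ± 0.16 in 5 animals. GAS2, an actin-associated protein first found in growth-arrested cells, averaged 27.4 ± 9.04 CPM at year 2 against 50.3 ± 10.6 CPM at year 0 (-0.93 ± 0.20). The progesterone receptor PGR (-1.42 ± 0.31), melanoregulin MREG (-1.69 ± 0.37) and the GABA receptor subunit GABRA5 (-0.94 ± 0.21) were also among them, all under 17 CPM in every library. Adjusted p was 0.231 to 0.290 for the 10 genes by edgeR, and DESeq2 called all 10, which is again not separate evidence because of how they were chosen.

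**Figure D2:**
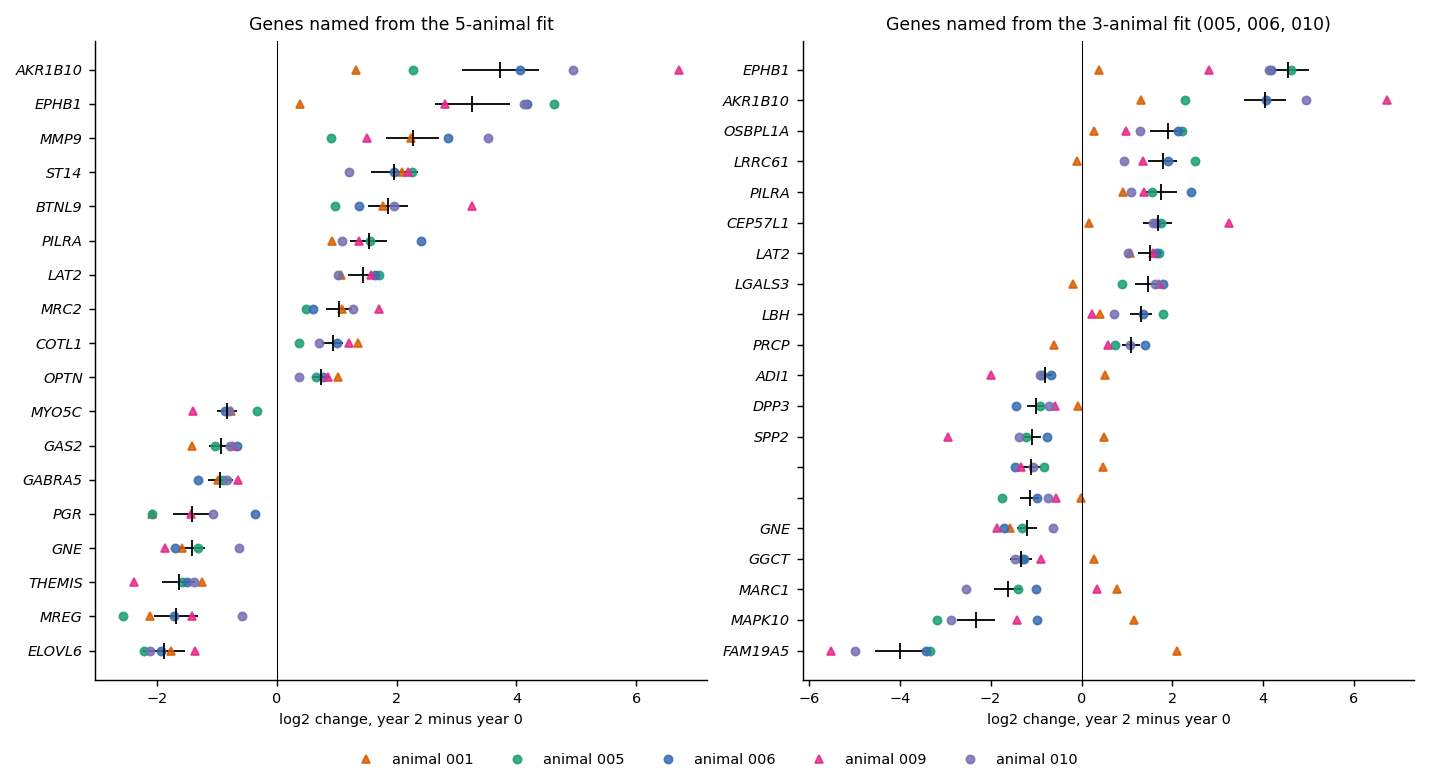
Log2 change (year 2 minus year 0) of each Control animal for 18 of the 20 genes of smallest p in 5 animals (left) and for the 20 in animals 005, 006 and 010 (right; genes described in the text are labelled), with the fitted change and its SE as a black tick and bar. On the left all animals lie on one side of 0 because the choice of genes required it; on the right animals 001 and 009 (triangles) had no part in the choice, and 009 lies on the side of the other 3 in 19 genes and 001 in 10.

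Animals 001 and 009 had no part in the fit of 3 animals, so that their own change can be set against it. Of the 1074 genes at an unadjusted p under 0.05 in 3 animals that were also tested in 5, 64.3% had the same direction in animal 009 and 46.8% in animal 001, against 53.5% and 47.9% of all 13730 genes. Of the 20 genes named from the 3-animal fit, 19 had the same direction in 009 and 10 in 001. OSBPL1A, an oxysterol-binding relative that acts on late endosomes, was at 82.0, 65.7, 61.1, 27.2 and 37.6 CPM at year 2 against 68.0, 14.1, 14.1, 13.8 and 15.3 CPM at year 0, and animal 001 was again high at both times (1.90 ± 0.38 in 3 animals). CEP57L1, a relative of a centrosomal protein, had 6.87, 18.8, 17.9, 50.7 and 17.7 CPM at year 2 against 6.14, 5.60, 5.73, 5.34 and 5.89 CPM at year 0; animal 001 was barely above the year 0 values, which were close to each other (1.67 ± 0.32, edgeR adjusted p = 0.343; 0.00558 without the animal block).

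LGALS3 (galectin-3), a lectin of macrophages and bile duct cells, had 3.10, 6.09, 8.68, 15.6 and 14.3 CPM at year 2 against 3.55, 3.26, 2.47, 4.79 and 4.62 CPM at year 0, lower at year 2 in animal 001 and higher in the other 4 (1.47 ± 0.28 in 3 animals). PRCP, a lysosomal peptidase, had 68.1, 122, 168, 93.5 and 151 CPM at year 2 against 104, 72.9, 63.9, 62.4 and 71.7 CPM at year 0, with the same split between 001 and the others (1.09 ± 0.20). LBH (1.32 ± 0.24), a transcription cofactor, and LRRC61 (1.79 ± 0.32) were also higher in the 3 animals.

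FAM19A5, a secreted chemokine-like protein, showed the largest difference among the 10 genes named as lower in 3 animals, with 13.4, 0.428, 0.448, 0.391 and 0.503 CPM at year 2 against 3.09, 4.64, 5.17, 19.7 and 17.0 CPM at year 0. It was lower at year 2 in 4 animals and higher in animal 001 (-4.00 ± 0.56 in 3 animals, edgeR adjusted p = 0.179; -3.43 ± 0.99 in 5). MARC1, a mitochondrial reductase of hepatocytes, had 113, 23.5, 27.4, 54.5 and 11.9 CPM at year 2 against 65.9, 62.3, 54.8, 42.9 and 70.1 CPM at year 0, lower in 005, 006 and 010 and higher in 001 and 009 (-1.62 ± 0.30). SPP2, a plasma phosphoprotein made by the liver, had 499, 288, 273, 62.1 and 165 CPM at year 2 against 353, 668, 464, 479 and 426 CPM at year 0, and ADI1, an enzyme of methionine salvage, 491, 168, 180.2, 75.4 and 157 CPM at year 2 against 343, 309, 286, 301 and 298 CPM at year 0. Both were lower in all animals but 001 (-1.10 ± 0.20 and -0.81 ± 0.16), as were GGCT (-1.34 ± 0.24), which breaks down glutathione products, and the neuronal JNK kinase MAPK10 (-2.33 ± 0.42). DPP3 (-1.01 ± 0.18), a cytosolic dipeptidase, was lower in 5 of 5.

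Gene lists of pathways and cell types were described by their counts and medians, without a test. Of all 13730 genes, 49.6% were lower and 50.4% higher at year 2, the median change was 0.00 in 5 animals and 0.01 in 3, and the medians within each animal lay between -0.02 and 0.01. Of 57 lists, 4 had a median below 0 in each of the 5 animals and 0 had one above 0 in each. The 4 were fatty acid and triglyceride synthesis, branched-chain amino acid breakdown, the urea cycle, and breakdown of aromatic amino acids and tryptophan. By edgeR no member of any list was called in either fit, while DESeq2 called 37 of 1475 members in 5 animals (15 higher and 22 lower) and 18 of 1482 in 3 animals (5 higher and 13 lower), which is 2.51% and 1.21% of them against 1.53% and 0.54% of all genes.

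**Figure D3:**
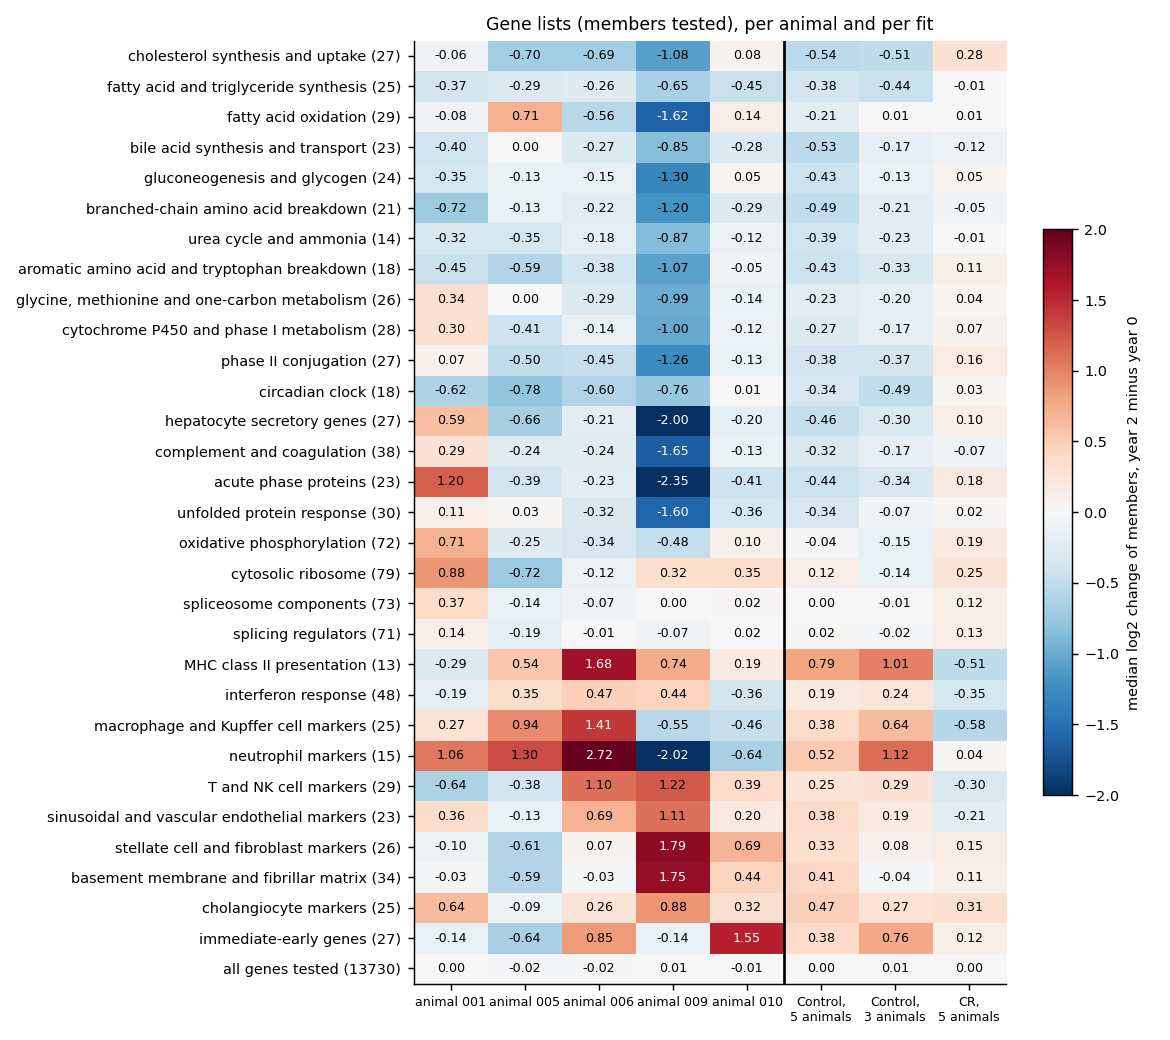
Median log2 change (year 2 minus year 0) of the members of 30 gene lists and of all genes tested, in each Control animal and in the Control fits of 5 and 3 animals and the CR fit; the number of members tested is in brackets. Lipid synthesis and amino acid breakdown are below 0 in nearly all Control columns, while hepatocyte secretory and acute phase lists have opposite signs in animals 001 and 009.

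Genes of cholesterol synthesis and uptake were lower at year 2 in 24 of 27 members in 5 animals, with a median of -0.54, and in 27 of 27 in 3 animals, with a median of -0.51. At an unadjusted p under 0.05 there were 11 lower members and 0 higher, where 7.49% of all genes were lower, and in 3 animals there were 9 lower and 0 higher, where 4.19% of all genes were lower. The median change was -0.06, -0.70, -0.69, -1.08 and 0.08 in the 5 animals, so that it was below 0 in 005, 006 and 009 and near 0 in 001 and 010. DHCR7, which makes cholesterol in the last step of synthesis, had 41.3, 15.1, 20.2, 11.7 and 33.4 CPM at year 2 against 35.2, 51.8, 72.2, 56.3 and 68.1 CPM at year 0 (-1.35 ± 0.36 in 5 animals, -1.53 ± 0.35 in 3), lower in all animals but 001. SC5DL, the sterol desaturase before it, had 266, 291, 471, 174 and 554 CPM at year 2 against 871, 593, 671, 651 and 588 CPM at year 0, without overlap though both values of animal 010 were close. For SC5DL the difference was -1.05 ± 0.28 in 5 animals and -0.52 ± 0.23 in 3. LSS, which closes the sterol rings, was lower in 5 of 5 animals. For LSS the difference was -1.03 ± 0.28 in 5 animals and -0.98 ± 0.38 in 3.

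Genes of fatty acid and triglyceride synthesis were lower in 18 of 25 members in 5 animals (median -0.38) and in 20 of 25 in 3 (median -0.44), with 6 lower and 1 higher at an unadjusted p under 0.05 in 5 animals (7.49% and 7.11% of all genes) and 2 lower and 0 higher in 3 (4.19% and 3.67%). The medians by animal were -0.37, -0.29, -0.26, -0.65 and -0.45, the narrowest spread among the 4 lists that were below 0 in each animal. Beside ELOVL6, ACACA, the carboxylase that commits carbon to fatty acids, had 59.9, 20.7, 28.2, 19.9 and 22.6 CPM at year 2 against 98.9, 29.5, 37.4, 33.9 and 51.7 CPM at year 0, lower in 5 of 5 animals (-0.72 ± 0.25 in 5, -0.69 ± 0.34 in 3), and ELOVL5, an elongase of polyunsaturated fatty acids, was lower in 4 of 5. For ELOVL5 the difference was -0.79 ± 0.29 in 5 animals. The fatty acid synthase FASN had 784, 30.9, 60.3, 272 and 62.7 CPM at year 2 against 1542, 62.5, 70.7, 67.0 and 225 CPM at year 0, lower in 4 animals and higher in 009. For FASN the difference was -0.48 ± 0.53 in 5 animals and -1.01 ± 0.52 in 3. The desaturase SCD had 3774, 134, 966, 346 and 627 CPM at year 2 against 6683, 658, 568, 727 and 1995 CPM at year 0, lower in all animals but 006. For SCD the difference was -1.04 ± 0.52 in 5 animals. Their regulator SREBF1 was at 163, 43.0, 71.4, 125 and 28.4 CPM at year 2 against 273, 50.4, 47.2, 42.7 and 147 CPM at year 0, with no common direction. For SREBF1 the difference was -0.22 ± 0.44 in 5 animals. Animal 001 had the highest FASN, SCD, ELOVL6 and ACACA of the Control animals at both times.

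**Figure D4:**
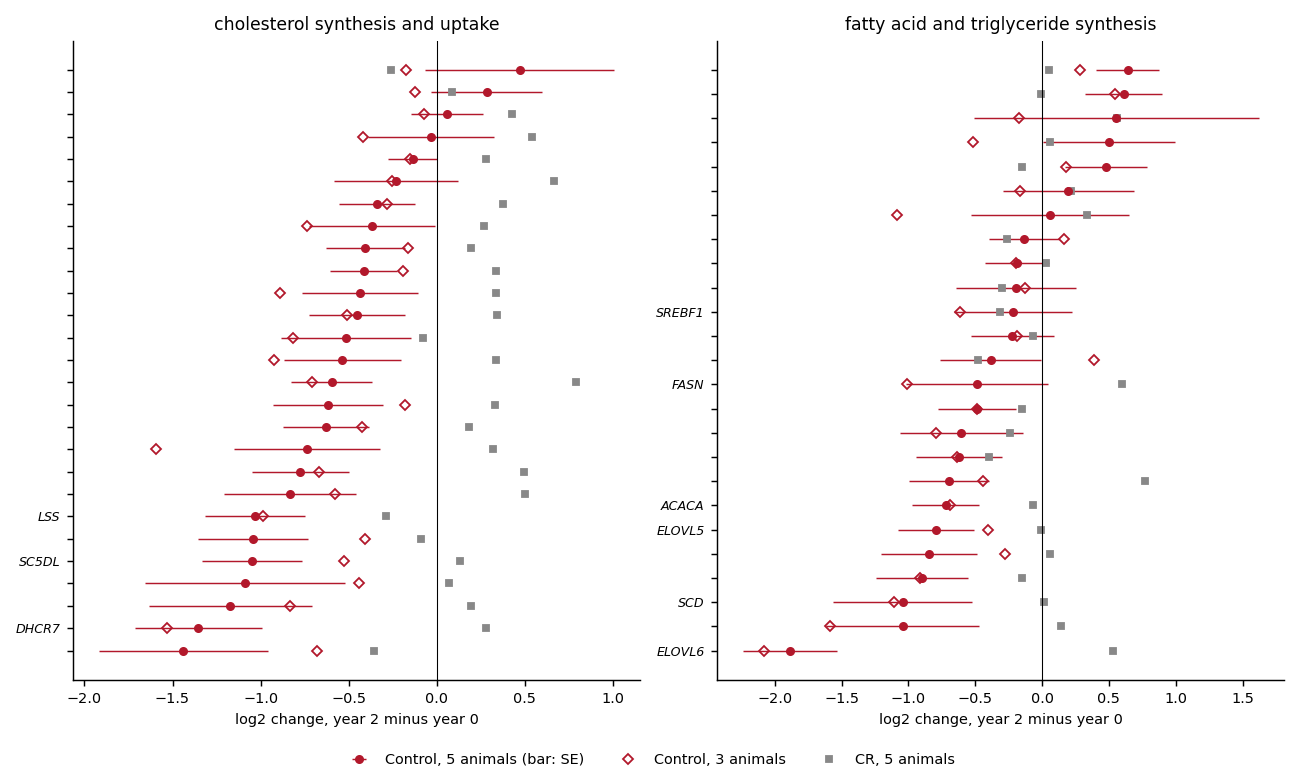
Fitted log2 change (year 2 minus year 0) of each tested member of the cholesterol list (27 genes) and the fatty acid and triglyceride list (25 genes) in Control with 5 animals (filled circles, bars are SE), Control with 3 animals (open diamonds) and CR (grey squares); members described in the text are labelled. In the cholesterol list the 3-animal values are all below 0 and most CR values are above 0.

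Genes that break down amino acids were lower in most members. Of the branched-chain list, 19 of 21 were lower in 5 animals (median -0.49; -0.21 in 3), 11 of them at an unadjusted p under 0.05 where 7.49% of all genes were lower, and 9 of 21 were lower in 5 of 5 animals, which held for 4.81% of all genes. In 3 animals 4 members were lower and 1 higher at that p, where 4.19% and 3.67% of all genes were. The medians by animal were -0.72, -0.13, -0.22, -1.20 and -0.29, furthest below 0 in 009 and 001. DBT, a subunit of the branched-chain ketoacid dehydrogenase, had 33.3, 60.8, 68.4, 30.2 and 45.6 CPM at year 2 against 93.9, 68.1, 89.8, 84.7 and 89.7 CPM at year 0. For DBT the difference was -0.90 ± 0.22 in 5 animals and -0.49 ± 0.20 in 3. Its partner subunit BCKDHB had 12.6, 37.5, 37.3, 11.3 and 25.6 CPM at year 2 against 34.2, 38.7, 40.9, 45.6 and 52.2 CPM at year 0 (-0.93 ± 0.26 in 5, -0.38 ± 0.20 in 3), nearly equal between years in 005 and 006. PPM1K, the phosphatase that activates the complex, was lower in 5 of 5 animals. For PPM1K the difference was -1.10 ± 0.31 in 5 animals.

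Of the aromatic amino acid and tryptophan list, 15 of 18 were lower in 5 animals (median -0.43) and 16 of 18 in 3 (median -0.33). The tyrosine aminotransferase TAT, a gene induced by glucocorticoids, had 189.7, 529, 3012, 220.2 and 2614 CPM at year 2 against 856, 2833, 3885, 4843 and 1946 CPM at year 0, far lower in 001, 005 and 009, lower by less in 006 and higher in 010. For TAT the difference was -1.77 ± 0.63 in 5 animals and -0.74 ± 0.56 in 3. KYNU, an enzyme of the kynurenine pathway (-0.79 ± 0.23), and PCBD1, which regenerates the cofactor of phenylalanine hydroxylase (-0.56 ± 0.19), were lower in 5 of 5. Of the urea cycle list, 11 of 14 were lower (median -0.39 in 5 animals, -0.23 in 3). Ornithine transcarbamylase OTC had 269, 231, 261, 75.1 and 242 CPM at year 2 against 278, 295, 298, 329 and 358 CPM at year 0, without overlap, with 009 lowest by far. For OTC the difference was -0.63 ± 0.28 in 5 animals and -0.35 ± 0.18 in 3. In one-carbon metabolism 21 of 26 were lower in 5 animals (median -0.23) and 18 of 26 in 3 (median -0.20). Among them PSAT1 of serine synthesis had 193, 168, 164, 97.0 and 234 CPM at year 2 against 340.5, 303, 343, 349 and 324 CPM at year 0, without overlap (-1.01 ± 0.25). The glycine decarboxylase GLDC was also lower. For GLDC the difference was -1.35 ± 0.38 in 5 animals and -1.60 ± 0.46 in 3.

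Drug metabolism was lower in 18 of 28 phase I members (median -0.27 in 5 animals, -0.17 in 3) and in 22 of 27 phase II members (median -0.38 and -0.37). FMO5, a flavin monooxygenase, had 256, 244, 321, 299.7 and 417 CPM at year 2 against 603, 444, 431, 813 and 719 CPM at year 0, without overlap. For FMO5 the difference was -0.95 ± 0.22 in 5 animals and -0.68 ± 0.21 in 3. CYP2B6 (-0.91 ± 0.28) and the glucuronidating enzyme UGT2B17 (-0.89 ± 0.27) were lower in 5 of 5 animals; CYP2B6 and UGT2B17 have close paralogs. In the circadian clock list 16 of 18 were lower in 5 animals (median -0.34) and 13 of 18 in 3 (median -0.49), and the medians by animal were -0.62, -0.78, -0.60, -0.76 and 0.01. CRY2, a repressor of the clock, had 122, 39.1, 61.8, 39.5 and 86.9 CPM at year 2 against 145, 121, 94.8, 129.5 and 149.6 CPM at year 0 (-0.99 ± 0.31 in 3 animals), lower in 5 of 5. The clock output factor HLF (-0.80 ± 0.23) and the repressor PER2 (-0.57 ± 0.20) were lower in all animals but 010. The hour of the biopsies is not stated in the labels.

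The lists that describe hepatocytes themselves had medians of opposite sign in the pair of libraries that stood apart. Hepatocyte secretory genes were lower in 24 of 27 members in 5 animals (median -0.46) and in 25 of 27 in 3 (median -0.30), but the medians by animal were 0.59, -0.66, -0.21, -2.00 and -0.20. Acute phase proteins showed the same contrast, with medians of 1.20, -0.39, -0.23, -2.35 and -0.41. ALB was at 112411, 97780.5, 112173, 32634 and 134152 CPM at year 2 against 114769, 138881, 117254, 146450.0 and 128918 CPM at year 0, lower in 009 and 005 and close to its year 0 value in the other 3. For ALB the difference was -0.51 ± 0.36 in 5 animals and -0.16 ± 0.19 in 3. As a share of counts, before TMM scaling, ALB in 001 was 8.57% at year 2 against 11.6% at year 0. HP was at 98756, 17748, 24452, 13438 and 21618 CPM at year 2 against 17520.1, 34965, 35799, 26749 and 26434 CPM at year 0, higher in 001 and lower in the other 4. The coagulation factor F9 had 451, 500.3, 500.2, 126 and 395 CPM at year 2 against 709, 592, 718, 756 and 677 CPM at year 0, and antithrombin SERPINC1 2317, 2423, 2861, 697 and 3109.6 CPM at year 2 against 3936, 3873, 3334, 3607 and 3155 CPM at year 0. Both were lower in 5 of 5 animals without overlap (-0.93 ± 0.30 and -0.79 ± 0.31 in 5, -0.50 and -0.29 in 3). Serum amyloid P, APCS, was lower in all animals but 001. For APCS the difference was -1.15 ± 0.38 in 5 animals.

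Genes of bile acid synthesis and transport were lower in 18 of 23 members in 5 animals (median -0.53) and in 16 of 23 in 3 (median -0.17). Among them the bile acid uptake carrier SLC10A1 had 171, 206, 286, 103 and 365 CPM at year 2 against 422, 371, 346, 340.0 and 447 CPM at year 0. For SLC10A1 the difference was -0.88 ± 0.27 in 5 animals. CYP7A1, the rate-limiting enzyme of bile acid synthesis, had 1.37, 11.5, 38.3, 4.30 and 27.3 CPM at year 2 against 135, 13.3, 20.1, 16.6 and 35.1 CPM at year 0, with a difference of -1.16 ± 1.15 in 5 animals and 0.14 ± 1.13 in 3, so that the sign turned with the animals used. In gluconeogenesis and glycogen metabolism 17 of 24 were lower in 5 animals (median -0.43) and 15 of 24 in 3 (median -0.13). PCK1, the gluconeogenic carboxykinase, had 387, 1143, 3244, 2170.2 and 5566 CPM at year 2 against 759, 4296, 5157, 6424 and 2565 CPM at year 0 (-0.84 ± 0.41), higher in 010 only. The growth hormone receptor GHR (-1.08 ± 0.38) was lower in 5 of 5 animals and IGF1 (-0.73 ± 0.31) in 4 of 5.

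For fatty acid oxidation the median turned with the animals used, with 26 of 29 members lower in 5 animals (median -0.21) and 14 of 29 in 3 (median 0.01), and medians by animal of -0.08, 0.71, -0.56, -1.62 and 0.14. Its regulator PPARA was at 94.3, 531, 164, 200.1 and 184 CPM at year 2 against 178, 255, 290.2, 279 and 149 CPM at year 0, higher in 005 and 010 and lower in the other 3. Genes of the cytosolic ribosome were higher in 57 of 79 members in 5 animals (median 0.12) and lower in 78 of 79 in 3 (median -0.14), with medians by animal of 0.88, -0.72, -0.12, 0.32 and 0.35. Oxidative phosphorylation had a median of -0.04 in 5 animals and -0.15 in 3. The spliceosome (73 members), splicing regulators (71) and mRNA 3' end processing and decay (49) had medians between -0.05 and 0.02 in both fits. Of the 73 spliceosome members 1 was higher and 5 lower at an unadjusted p under 0.05, against 7.11% and 7.49% of all genes. PRPF18 was lower by a small amount in 5 of 5 animals (-0.41 ± 0.16), and the splicing regulator NOVA1 was higher in 5 of 5 (1.64 ± 0.52) at under 1.2 CPM.

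Among immune genes, those of MHC class II presentation were higher in 10 of 13 members in 5 animals (median 0.79) and in 10 of 13 in 3 (median 1.01). At an unadjusted p under 0.05 there were 4 higher members and 1 lower in 5 animals, and 6 higher and 0 lower in 3, where 7.11% and 3.67% of all genes were higher. CIITA, the master regulator of class II genes, had 3.05, 3.49, 4.86, 9.65 and 3.11 CPM at year 2 against 2.91, 2.39, 1.71, 2.00 and 2.53 CPM at year 0, without overlap. For CIITA the difference was 0.93 ± 0.34 in 5 animals. MAMU-DMA, a chain of the class II peptide loading factor, had 9.57, 13.6, 19.5, 25.3 and 16.1 CPM at year 2 against 7.72, 8.16, 6.81, 9.30 and 9.73 CPM at year 0 (0.95 ± 0.26), and its partner MAMU-DMB 5.49, 7.87, 15.2, 18.6 and 8.56 CPM at year 2 against 5.20, 4.17, 4.10, 7.89 and 7.49 CPM at year 0. For MAMU-DMB the difference was 0.86 ± 0.32 in 5 animals. All 3 were higher in 5 of 5 animals and closest to their year 0 value in 001. Where MHC genes of the list are nearly alike in sequence, how their reads were divided is uncertain. CIITA is not an MHC gene.

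Macrophage and Kupffer cell markers were higher in 21 of 25 members in 5 animals (median 0.38) and in 24 of 25 in 3 (median 0.64). The medians by animal were 0.27, 0.94, 1.41, -0.55 and -0.46, so that 005 and 006 were higher and 009 and 010 lower. The summed level of the list was 1590.1 to 3255 CPM at year 2 and 1516 to 2213 CPM at year 0, and CLEC4F was at 0 in every Control library. TYROBP, a signalling adaptor of myeloid cells, was higher in 5 of 5 animals (0.73 ± 0.27), and the complement component C1QA had 315, 136, 205, 206 and 106 CPM at year 2 against 79.3, 99.0, 98.0, 145 and 146 CPM at year 0, higher in all but 010. For C1QA the difference was 0.71 ± 0.33 in 5 animals. Neutrophil markers were higher in 13 of 15 (median 0.52 in 5 animals, 1.12 in 3), with medians by animal of 1.06, 1.30, 2.72, -2.02 and -0.64 and a summed level of 42.2 to 124 CPM at year 2 and 33.4 to 80.0 CPM at year 0. VNN2 (2.77 ± 0.78), a neutrophil surface enzyme, and MMP9 were higher in 5 of 5. VNN2 was at 0.254 to 1.38 CPM at year 2 and 0 to 0.261 CPM at year 0, so that few reads stand behind its difference. The part of macrophages and neutrophils in the differences of LAT2, PILRA and the class II genes was not tested. T and NK cell markers were higher in 23 of 29 in 5 animals (median 0.25) and in 25 of 29 in 3 (median 0.29). Their summed level was 59.2 to 147 CPM at year 2 and 46.8 to 84.6 CPM at year 0. KLRB1, a receptor of NK cells, was higher in 5 of 5. For KLRB1 the difference was 0.98 ± 0.28 in 5 animals. The summed T and NK level of 147 CPM was that of 009, and in 005, 006 and 010 it was 59.2 to 82.7 CPM at year 2.

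Endothelial markers were higher in 19 of 23 members (median 0.38 in 5 animals, 0.19 in 3) and summed to 917 to 3171 CPM at year 2 and 633 to 1135 CPM at year 0, highest in 009. PLVAP, a component of endothelial fenestrae, had 12.4, 18.1, 22.3, 16.2 and 12.6 CPM at year 2 against 7.50, 7.07, 8.24, 12.5 and 11.0 CPM at year 0 (0.82 ± 0.25 in 5, 1.02 ± 0.33 in 3), and STAB2, the hyaluronan receptor of sinusoids, was higher in 5 of 5. For STAB2 the difference was 0.68 ± 0.25 in 5 animals. Stellate cell and fibroblast markers were higher in 19 of 26 in 5 animals (median 0.33) and in 15 of 26 in 3 (median 0.08), with medians by animal of -0.10, -0.61, 0.07, 1.79 and 0.69. Matrix genes had medians of -0.03, -0.59, -0.03, 1.75 and 0.44 by animal, highest in 009 (5 animals 0.41, against -0.04 in 3). TIMP1, an inhibitor of matrix proteases, averaged 21.8 ± 8.39 CPM at year 2 against 11.4 ± 2.85 CPM at year 0 (0.89 ± 0.22), and the collagen chains COL4A2 (0.82 ± 0.23 in 5, 0.81 ± 0.28 in 3) and COL15A1 (1.55 ± 0.41 in 5, 1.01 ± 0.43 in 3) were higher in 5 of 5.

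Cholangiocyte markers were higher in 23 of 25 members in 5 animals (median 0.47) and in 16 of 25 in 3 (median 0.27), summing to 173 to 389 CPM at year 2 and 171 to 210.3 CPM at year 0. The year 2 sums were 389 CPM in 001 and 293 CPM in 009, and 173 to 201 CPM in 005, 006 and 010, within the year 0 range. KRT19, a keratin of bile ducts, had 18.5, 1.88, 2.72, 6.95 and 2.65 CPM at year 2 against 2.33, 0.608, 1.43, 1.37 and 1.34 CPM at year 0, higher in 5 of 5 animals and highest in 001. For KRT19 the difference was 1.79 ± 0.63 in 5 animals. Their part in the difference of LGALS3, a member of the list, was not tested. EGR2, an immediate-early transcription factor, had 2.95, 0.988, 4.13, 1.52 and 4.58 CPM at year 2 against 0.861, 0.174, 0.836, 0.589 and 0.447 CPM at year 0, and the stress hormone GDF15 1.68, 0.823, 3.75, 2.97 and 2.24 CPM at year 2 against 0.179, 0.260, 0.796, 0.667 and 0.298 CPM at year 0. Both were higher without overlap at low levels (2.23 ± 0.49 and 2.41 ± 0.65). Of the whole immediate-early list, 17 of 27 were higher in 5 animals (median 0.38) and 21 of 27 in 3 (median 0.76). EGR2 was the only one higher in 5 of 5 animals, and the medians by animal were -0.14, -0.64, 0.85, -0.14 and 1.55.

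The Control change was set against the CR change by the diet by year interaction. EdgeR called 0 of 13730 genes (0%) in 5 animals per diet, with 941 at an unadjusted p under 0.05 (6.85%; 4.21% with the higher and 2.64% with the lower Control change), and DESeq2 called 41 (0.299%). Without the year 2 libraries of 001 and 009 edgeR called EPHB1 alone (0.0072% of 13881), with a Control minus CR difference of 5.14 ± 0.54 (edgeR adjusted p = 0.0466), and 1460 genes were at an unadjusted p under 0.05 (10.5%; 5.55% with the higher and 4.97% with the lower Control change). DESeq2 called 127 (0.915%). The edgeR call of EPHB1 in this interaction was lost in 6 of 8 fits without 1 more animal, with an edgeR adjusted p of up to 0.495 (without 005). LAT2 (1.77 ± 0.34), PILRA (2.11 ± 0.43), OPTN (1.05 ± 0.21) and MRC2 (1.53 ± 0.30) were higher in 5 of 5 Control animals and lower in 5 of 5 CR animals, and so were MAMU-DMA (1.53 ± 0.37) and CIITA (1.71 ± 0.47). THEMIS (-2.36 ± 0.39) and ELOVL6 (-2.42 ± 0.50) had the lower Control change. The edgeR adjusted p of these 8 differences was 0.581 to 0.668. The choice of LAT2, PILRA, OPTN, MRC2, THEMIS and ELOVL6 had required the same sign in 5 of 5 Control animals. Of all 13730 genes, 9.42% had the same sign in 5 of 5 Control animals and 12.2% in 5 of 5 CR animals. How many had opposite signs in both diets was not counted.

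The levels in both diets are given side by side. LAT2 was at 1.78 to 4.96 CPM in Control and 1.13 to 2.33 CPM in CR at year 2, and at 0.651 to 1.65 CPM in Control and 1.62 to 2.66 CPM in CR at year 0. CIITA was at 3.05 to 9.65 CPM in Control and 1.90 to 4.15 CPM in CR at year 2, and at 1.71 to 2.91 CPM in Control and 3.43 to 6.49 CPM in CR at year 0, where the ranges did not overlap. The year 0 ranges of Control and CR were also apart for OPTN (23.9 to 32.7 and 39.8 to 51.1 CPM). The same held for PILRA (0.359 to 0.781 and 1.27 to 1.74 CPM) and MAMU-DMA (6.81 to 9.73 and 16.4 to 18.1 CPM). They overlapped for LAT2 and for MRC2 (3.09 to 5.29 and 4.42 to 7.39 CPM). OSBPL1A in CR was at 30.3 to 70.4 CPM at year 2 and 35.1 to 68.9 CPM at year 0, near the Control year 2 values and well above those of 4 Control animals at year 0. ELOVL6 in CR was at 9.29 to 109 CPM at year 2 and 10.8 to 95.1 CPM at year 0. Of the 20 genes named from 3 animals, the Control median lay within the range of the 10 CR libraries in 16 at year 2 and in 6 at year 0; over all genes these shares were 81.9% and 92.8%. Of the 20 genes of smallest p from 5 animals it lay within that range in 11 at year 2 and in 11 at year 0. These are descriptions, since the genes were chosen for a difference between the 2 Control groups.

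The medians of the cholesterol, macrophage and class II lists had opposite signs in the 2 diets. The median change of the cholesterol list was -0.54 in Control and 0.28 in CR, and 10 of 27 members had a lower Control change at an unadjusted interaction p under 0.05, where 2.64% of all genes did. Macrophage markers had a median of 0.38 in Control and -0.58 in CR, with 8 of 25 members having the higher Control change at that threshold, and class II genes 0.79 in Control and -0.51 in CR, with 6 of 13, where 4.21% of all genes did. The animals of a diet were not alike in this. In CR animals 004, 007, 008, 011 and 012 the macrophage medians were -1.51, -1.25, -0.05, -0.12 and 0.04, far below 0 in 004 and 007 and near 0 in the other 3, and in Control 009 and 010 were below 0 as given above. The class II medians were -0.29, 0.54, 1.68, 0.74 and 0.19 in the Control animals and -1.76, -1.01, -0.34, -0.03 and 0.00 in the CR animals, again lowest in 004 and 007. The cholesterol medians in CR were 0.63, 0.36, -0.12, 0.45 and 0.07, below 0 in 008. Fatty acid and triglyceride synthesis (-0.38 in Control and -0.01 in CR) had 2 of 25 members with a lower Control change at an unadjusted interaction p under 0.05. Branched-chain amino acid breakdown (-0.49 and -0.05) had 4 of 21 at that threshold, where 2.64% of all genes did.

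The use of transcripts within a gene was tested as the part of its counts assigned to each, in 1171 genes with more than 1 transcript. EdgeR's diffSpliceDGE called 3 (0.256%), SLC9A7, COL18A1 and MYO1C, with 37 (3.16%) at an unadjusted p under 0.05. The shares are estimates, since reads shared by transcripts are divided by a model. SLC9A7 is a sodium and proton exchanger of the Golgi. Its transcript 01 took 85.1%, 80.1%, 0%, 85.4% and 79.3% of the gene at year 2 against 0% in all 5 animals at year 0 (edgeR adjusted p = 0.00347). It had 118 to 165 counts in the 4 animals at year 2, and the gene had 126 to 195 counts at year 0. In CR it took 0% in all year 2 libraries and in 4 of 5 year 0 libraries, and 78.8% in the other one. Shares were thus either 0% or near 80% in every library, and animal 006 was at 0% at both times. The filter asked for 10 or more counts in 5 libraries. Transcript 01 met it only through the 4 Control year 2 libraries and the CR library at 78.8%. It thus entered the test through the group where it is high, and its adjusted p is not separate from that choice.

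COL18A1 encodes a basement membrane collagen from which endostatin is cut. Its transcript 02 took 21.8%, 0.616%, 1.24%, 72.2% and 4.44% at year 2 against 0.0903%, 0%, 0%, 1.47% and 1.45% at year 0 (edgeR adjusted p = 0.00347), so that the share was higher in 5 of 5 animals but above 5% in 001 and 009 only. In CR it was between 0.0491% and 1.09% in all 10 libraries. Transcript 02 reached the 5% of the gene that the filter required only in fits that held the year 2 library of 009. It too entered the test through libraries where it is high. MYO1C encodes a membrane-bound myosin motor, and its transcript 01 took 5.61% in 001 and 0% in the other 4 animals at year 2, against 18.2%, 7.43%, 39.7%, 15.7% and 12.1% at year 0 (edgeR adjusted p = 0.00539). The groups did not overlap. In CR the share was 12.1% to 30.3% at year 2 and 5.08% to 42.8% at year 0. Without the year 2 libraries of 001 and 009, 1 of 1121 genes was called (0.0892%), MYO1C (edgeR adjusted p = 0.0109), and SLC9A7 and COL18A1 were not among the genes tested. With 1 Control animal left out, SLC9A7 passed the transcript filter and was called only without 006, and COL18A1 was called in each case except without 009, where it did not pass the filter. MYO1C was not called without 006, 009 or 010 (edgeR adjusted p = 0.0954, 0.426 and 0.0953). In the Control libraries alone the adjusted p was 0.300 for COL18A1 and 0.183 for MYO1C, and SLC9A7 was not tested.

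**Figure D5:**
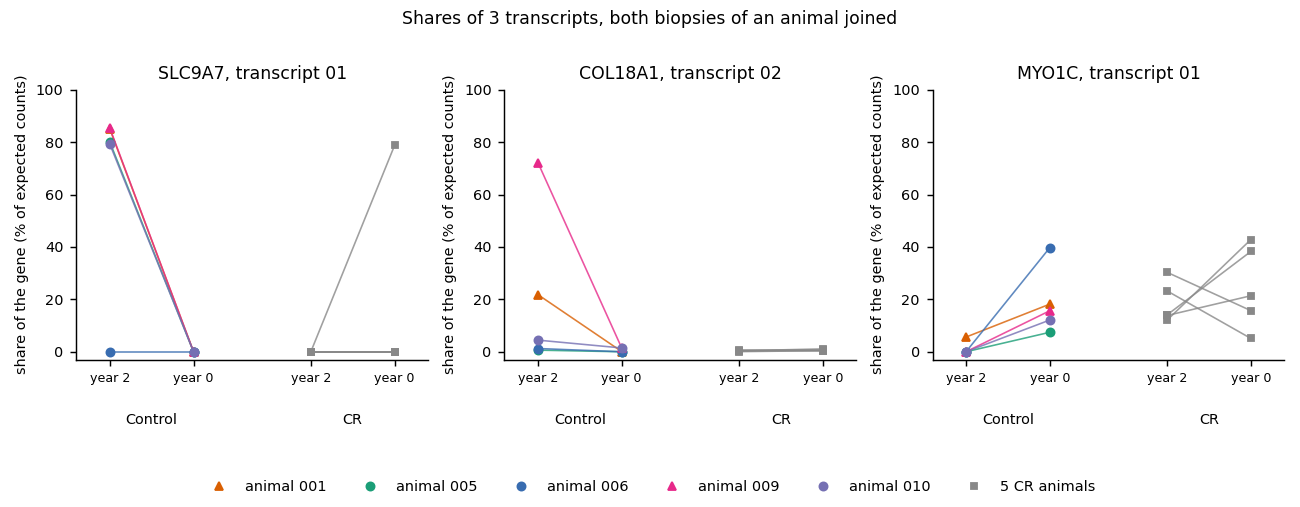
Share of the gene's expected counts, in percent, taken by 3 transcripts in the year 2 and year 0 biopsies of each Control animal (colours; triangles for 001 and 009) and each CR animal (grey squares). SLC9A7 transcript 01 is near 80% in 4 Control animals at year 2, COL18A1 transcript 02 exceeds 5% in animals 001 and 009 only, and MYO1C transcript 01 is at 0% in 4 of the 5 Control year 2 libraries and at 5.61% in animal 001.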

How the data were processed

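Per the labels' protocols, total RNA of liver biopsies was extracted with TRIzol and a column kit, made into Illumina TruSeq libraries and sequenced paired-end. The authors deposited expected counts per gene (18288 genes) and per transcript (22181), estimated from the reads without normalization, and TPM per gene. Of the gene counts 4.37% had a fractional part, as did 17.5% of those per transcript. The submitters' processing notes list the tools STAR, RSEM and DESeq2 and the build Mmul_8.0.1 (rheMac8), with neither roles nor versions. Annotation, trimming and strand: not given in the sources used here. Neither the FPKM tables nor a table of the authors' own test statistics, whose comparison is not named, nor the transcript TPM were used here, and 0% of counts lay in rows without a gene name. Genes are given by the symbols of the tables, without coordinates.

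Expected counts were rounded to whole numbers. Genes were filtered by filterByExpr, scaled by TMM and tested with the quasi-likelihood F test of edgeR 4.0.16 (R 4.3.3), two-sided and robust, with Benjamini-Hochberg adjustment over all genes. The model had a term per animal and a year 2 term per diet over all 20 libraries, or over 18 without the year 2 libraries of animals 001 and 009, with filter and scaling computed anew. The median biological coefficient of variation was 0.318 with 20 libraries and 0.242 with 18. It was 0.379 in the 10 Control libraries alone, 0.259 in these without 001 and 009 at year 2, and 0.226 in the 10 CR libraries. The shared spread was thus smaller than that of Control alone, and the SE and p of the Control change rest on the shared one. Pairing comes from the animal number in the labels; the correlation of an animal's deviations at both years was 0.16 in 001, -0.25 in 005, -0.02 in 006, -0.22 in 009 and -0.03 in 010, and the block was kept because both biopsies come from the same animal. Changes within an animal are differences of log2 CPM with a prior count of 1. Transcript usage was tested with diffSpliceDGE on transcripts with 10 or more counts in 5 libraries that made up 5% or more of the gene. The scripts were tested on simulated data. Alternatives were DESeq2 1.42.0, limma 3.58.1 on log2(TPM + 1), relative log expression, no filter, no animal block, Control libraries alone and each animal left out.

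Genes were named as the 10 of smallest p per direction with the same sign in every animal of the fit and at least 1 CPM, in 5 and in 3 animals, up to 3 of smallest p per list in the direction of its median, a panel of liver metabolic genes, and the 10 of smallest p in the interaction, in transcript usage and by abundance; those that added nothing were left out, and some are not reported here. The comparison, the lists and these rules were chosen with earlier results of these data known.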

Additional observations from a re-analysis of the deposited data

Results flagged for a closer look

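Of 176 sets of 5 Control values checked (gene levels and library measures at 1 year), 24 held 1 animal far from the other 4, its gap to the nearest being over 0.71 of the range. The cutoff corresponds to about 1 in 20 sets for independent, normally distributed values. The sets here are mostly CPM of genes chosen from these same data and share their libraries, so that 24 cannot be set against that rate. At year 0 these were animal 001, the highest for AKR1B10 (10.7 CPM), EPHB1 (10.7 CPM), ELOVL6 (269.6 CPM), FASN (1542 CPM), SCD (6683 CPM), CYP7A1 (135 CPM), OSBPL1A (68.0 CPM) and PRCP (104 CPM). At year 2 animal 001 was the highest for ELOVL6 (79.6 CPM), ACACA (59.9 CPM), SCD (3774 CPM), FAM19A5 (13.4 CPM), ADI1 (491 CPM) and HP (98756 CPM). Animal 009 at year 2 was the highest for BTNL9 (183 CPM), MRC2 (14.8 CPM), CIITA (9.65 CPM), CEP57L1 (50.7 CPM) and STAB2 (426 CPM), and the lowest for OTC (75.1 CPM) and F9 (126 CPM). Animal 005 was the highest at year 2 for PPARA (531 CPM) and LBH (27.2 CPM), and 010 for THEMIS (4.21 CPM).

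The change differed between Control and CR for EPHB1 without the year 2 libraries of 001 and 009, by 5.14 on the log2 scale in the interaction test. For LAT2 (1.77), PILRA (2.11), OPTN (1.05), MRC2 (1.53), MAMU-DMA (1.53), CIITA (1.71) and PRPF18 (-0.58; Control minus CR) every Control animal moved one way and every CR animal the other, and edgeR's interaction test called none of these 7. Only genes named in the text were checked for this pattern. LAT2, PILRA, OPTN and MRC2 had been named for the same sign in every Control animal. The share of all genes with the pattern was not counted. At year 0 the ranges of Control and CR were already apart for PILRA, OPTN, MAMU-DMA, CIITA and PRPF18.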

How the results depend on the processing

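In 5 Control animals 0 genes were called by edgeR as reported; DESeq2 called 114 higher and 96 lower, leaving out 1 animal gave 0 to 2 higher and 0 to 1 lower, and without the year 2 libraries of 001 and 009 1 was higher. In 3 animals, where 1 was called higher and 0 lower, the count of higher genes was 27 with DESeq2, 2 without a filter, 2 without the animal block (CEP57L1 and PILRA) and 0 with limma or in the Control libraries alone; DESeq2 called 48 lower, and leaving out 1 animal gave 0 to 1 higher and 0 to 1 lower. The difference from CR, 0 higher and 0 lower as reported, was called higher in 25 and lower in 16 genes by DESeq2, in 1 (higher) without the year 2 libraries of 001 and 009, and in 0 to 1 (higher) and 0 (lower) with 1 animal left out. Transcript usage, called in 3 genes, gave 0 in the Control libraries alone, 1 without those libraries, 4 without the animal block (COL18A1, DYSF, GTDC1 and ZNF317, so that only COL18A1 was shared) and 0 to 7 with 1 animal left out (0 without 009, 1 without 010 and 7 without 005). With a share of at least 10% it gave 3, with GTDC1 in place of COL18A1.

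Of 85 results for named genes, 81 kept their direction in every alternative run. SREBF1 turned to 0.28 without animal 010 (range with 1 animal left out -0.64 to 0.28), CYP7A1 to 0.14 without the year 2 libraries of 001 and 009, and PPARA to 0.20 without these libraries, 0.020 without animal 001 (range -0.46 to 0.020) and 0.029 without the animal block. HP turned to 0.32 without the animal block, 0.070 with limma, 0.087 without animal 005 and 0.092 without 009 (range -0.69 to 0.092). The causes were not tested. Without the animal block EPHB1 in 3 animals was higher by 1.77 (edgeR adjusted p = 0.508), and its range over all alternatives was 1.74 to 4.69. AKR1B10 in 5 animals ranged from 2.14 to 4.61. Limma on log2(TPM + 1), which understates low genes, moved the median of all genes by 0.12 in 5 animals and 0.16 in 3, and list medians were read relative to it. Of 57 list medians 28 kept their sign in all 8 alternatives, among them cholesterol (-0.66 to -0.38), fatty acid and triglyceride synthesis (-0.44 to -0.29), branched-chain amino acids (-0.60 to -0.21) and class II genes (0.43 to 1.06). Neutrophil, stellate, ribosomal, matrix, immediate-early, spliceosome and fatty acid oxidation medians did not.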
